A study of Mus musculus with 16 samples.

Results

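The transcriptome of wild-type growing mouse oocytes 12 days after birth was described from the 4 wild-type arrays among the 16 arrays of the series. These 4 arrays are the ones whose titles name wild-type animals, and no array was chosen by a measured value. Each array held total RNA of 80 pooled oocytes from ovaries of 12-day-old C57BL/6 mice, and the labels call the 4 pools biological replicates. The RNA was amplified with a whole-transcriptome kit, labelled with biotin and hybridised to an Affymetrix Mouse 1.1 ST array, which reads a transcript with many short probes summarised as a probe set. The other 12 arrays came from oocytes that had lost Hdac1, Hdac2 or both through conditional alleles and Zp3-Cre, a recombinase driven by a promoter of growing oocytes. They enter no wild-type level or rank, and their readings are printed only for the deleted genes and for genes that varied between the wild-type arrays. The sources used here do not say whether the wild-type mice carried floxed alleles or the Cre transgene, nor how many animals gave each pool.

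At this age the ovary holds a large first wave of oocytes that are growing together, arrested in the prophase of meiosis I and surrounded by granulosa cells. A growing oocyte builds the zona pellucida, its extracellular coat, and secretes ligands that act on the granulosa cells. It also stocks mRNAs and proteins for meiotic maturation and for the early embryo before the embryo's genome is active. It depends on granulosa cells for pyruvate and several amino acids.

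Values are the deposited signals, on a log scale taken as log2 because the labels do not name the base. Exactly 1 gene symbol was attached to 21218 of the 35556 probe sets, and these covered 18820 genes. A gene is represented by its brightest probe set over the 4 arrays and was ranked by its mean signal, with rank 1 the brightest. Signal depends on the probes as well as on the RNA and has no scale per transcript length. The ranks are therefore ranks of brightness, and no ratio between genes is given. Levels are printed as mean ± SD over the 4 arrays (n = 4), and where nothing else is said the 4 values follow the order of arrays 1 to 4.

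The low end of the scale was set with genes that an oocyte has little known use for. Chemosensory receptor genes, which encode olfactory, vomeronasal, taste and trace amine receptors, had 1220 probe sets with a median of 3.29. The 95th percentile of these probe sets, 4.21, served as the floor, and their 99th percentile was 5.67. A gene between these limits lies where the brightest receptor probe sets also lie, so such genes are given with their values and read as low. Above the floor were 11828 of the 18820 genes (62.8%), and 8554 also exceeded 5.67. The gene just inside the limit was Rtkn at 4.2122 and the gene just outside was Apc2 at 4.2117. The median over all genes was 5.14, the gene at rank 1000 had a signal of 10.48, and the brightest gene reached 12.56. Most oocyte-list genes lay high on this curve and most markers of other cells low, with exceptions on both sides.

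**Figure D1:**
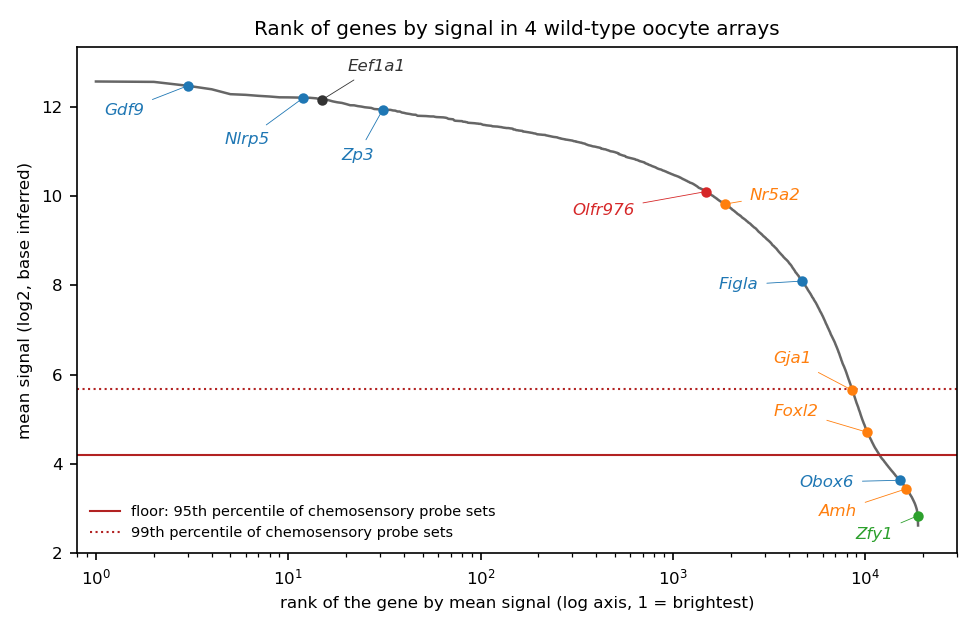
Mean signal over 4 wild-type arrays (log2) against the rank of the gene (log axis) for 18820 genes. Gdf9, Nlrp5 and Zp3 lie among the 40 brightest genes beside Eef1a1, Figla lies at 8.09, and Amh and the Y-linked Zfy1 lie below the floor drawn at 4.21.

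The label was checked against the defining markers first. Gdf9, a growth factor that the oocyte secretes towards granulosa cells, read 12.45, 12.45, 12.51 and 12.45 and ranked 3. Nlrp5, a maternal effect gene of the subcortical maternal complex, read 12.22, 12.19, 12.18 and 12.20 and ranked 12. Zp3, a main structural protein of the zona pellucida, read 11.93, 11.93, 11.92 and 11.95 and ranked 31. These 3 genes stood among the 40 brightest, and their values hardly differed between arrays. Figla, a transcription factor needed for follicle formation and zona gene expression, read 8.34, 8.10, 7.84 and 8.10 and ranked 4697. It exceeded the 99th percentile of the receptor probe sets on every array. Hdac1, the histone deacetylase deleted in other arrays of the series, read 9.26, 9.26, 9.23 and 9.35 here, against 6.40 to 6.83 in the arrays labelled Hdac1 knockout. In the double knockout arrays Hdac1 read 7.54 to 7.75, lower than here but above the single knockout. The Hdac2 probe set read 11.02 to 11.18 here and 10.95 to 11.01 in the arrays labelled Hdac2 knockout, so it did not show the deletion and checks no label.

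Among the 40 brightest genes with established symbols, 13 belonged to the oocyte lists, 4 encoded cytosolic ribosomal proteins, 3 were heat shock proteins and 17 fell in none of the families examined. At the head stood Rn28s1, the 28S ribosomal RNA, at 12.56 ± 0.04. Sod1, the copper and zinc superoxide dismutase, followed at 12.55 ± 0.06, and Gdf9 ranked 3. Tmsb10, an actin-sequestering thymosin, read 12.39 ± 0.06. Mdm4, an inhibitor of p53, read 12.26 ± 0.05. Ldhb, the heart-type subunit of lactate dehydrogenase, read 12.24 ± 0.04. Calm2, a calmodulin, and Hsp90aa1, an inducible Hsp90 chaperone, both read 12.21. These housekeeping genes stood beside oocyte genes in the same narrow band, and the SD of the 40 genes ran from 0.0125 to 0.0861.

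The oocyte genes of that band have different tasks. Dnmt1, the maintenance DNA methyltransferase, read 12.28 ± 0.01. Eif4e1b, a germline form of the mRNA cap-binding protein, read 12.23 ± 0.03. Padi6, a component of the cytoplasmic lattices of the oocyte, read 12.20, 12.17, 12.18 and 12.24. The translation elongation factor Eef1a1, a common reference gene, read 12.15 ± 0.04. Bmp15, an X-linked partner of Gdf9, read 12.05, 12.12, 12.20 and 12.10. Zp1, a zona protein, read 12.10 ± 0.06, and Dppa5a, an RNA-binding protein of pluripotent cells, 12.08 ± 0.06. Ooep, an oocyte protein of the subcortical maternal complex, read 12.05, 12.03, 11.99 and 12.05. Rfpl4, a RING finger protein of oocytes, read 11.97 ± 0.03. Nlrp14, a further NLRP gene of germ cells, and the oocyte-secreted protein gene Oosp2 both read 11.91 ± 0.02. Elobl, an elongin B-like gene, Ftdc1, a ferritin-domain gene, and Hypk, a chaperone of nascent chains, were also in this band at 12.20, 11.94 and 11.89. For Marchf5 and Zcrb1, also among the 40, another probe set of the same gene read 4.97 and 5.34, so their place rests on the brighter probe set alone. Other genes of the 40 also had dimmer probe sets below 11.85, the lowest mean of the 40. The lowest of these readings were 10.83 for Sod1, 9.42 for Calm2 and 9.13 for Dppa5a.

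Start-site sequences of some bright oocyte genes and of bright housekeeping genes were set side by side as examples of CG content. Brighter oocyte genes, such as Gdf9, Dnmt1, Eif4e1b and Nlrp5, are not shown, so the examples do not stand for the oocyte lists. Each is a RefSeq window of assembly GRCm38.p6 from 250 bases before to 50 after the annotated start, 5′ to 3′ on the gene's strand, and capitals mark every CG pair. CG reads the same on both strands. The genes shown were chosen after their signals were seen.
Padi6, chr4:140742594-140742893, minus strand, 2 CG: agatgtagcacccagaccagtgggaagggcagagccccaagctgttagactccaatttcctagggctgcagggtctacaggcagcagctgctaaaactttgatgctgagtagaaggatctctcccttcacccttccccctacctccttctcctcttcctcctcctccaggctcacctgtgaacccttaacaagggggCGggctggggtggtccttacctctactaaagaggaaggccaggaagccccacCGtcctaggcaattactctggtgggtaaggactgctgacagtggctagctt
Bmp15, chrX:6320675-6320974, minus strand, 2 CG: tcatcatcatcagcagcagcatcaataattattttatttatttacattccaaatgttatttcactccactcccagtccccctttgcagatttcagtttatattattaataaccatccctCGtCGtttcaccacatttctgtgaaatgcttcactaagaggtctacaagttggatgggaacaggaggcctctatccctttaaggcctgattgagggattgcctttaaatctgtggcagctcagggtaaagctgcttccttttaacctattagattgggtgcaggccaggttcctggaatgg
Rfpl4, chr7:5116862-5117161, minus strand, 3 CG: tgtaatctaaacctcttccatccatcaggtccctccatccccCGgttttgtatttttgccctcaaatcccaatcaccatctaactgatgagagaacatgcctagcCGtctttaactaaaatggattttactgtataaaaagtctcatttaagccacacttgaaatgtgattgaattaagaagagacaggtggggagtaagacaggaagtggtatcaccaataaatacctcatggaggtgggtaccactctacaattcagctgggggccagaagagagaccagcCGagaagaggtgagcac
Ooep, chr9:78378539-78378838, minus strand, 15 CG: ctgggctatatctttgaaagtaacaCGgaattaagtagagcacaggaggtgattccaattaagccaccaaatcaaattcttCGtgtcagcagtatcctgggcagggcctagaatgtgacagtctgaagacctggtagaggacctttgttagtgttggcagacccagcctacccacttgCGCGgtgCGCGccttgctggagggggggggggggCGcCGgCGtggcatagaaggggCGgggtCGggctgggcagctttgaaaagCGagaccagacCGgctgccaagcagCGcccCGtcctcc
Eef1a1, chr9:78481675-78481974, minus strand, 22 CG: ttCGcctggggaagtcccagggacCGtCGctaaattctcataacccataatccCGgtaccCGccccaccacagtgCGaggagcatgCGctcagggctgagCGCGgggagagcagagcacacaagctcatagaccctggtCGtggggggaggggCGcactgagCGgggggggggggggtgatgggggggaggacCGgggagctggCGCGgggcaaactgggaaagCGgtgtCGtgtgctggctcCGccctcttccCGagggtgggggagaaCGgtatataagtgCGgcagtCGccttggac
Rps4x, chrX:102189342-102189641, minus strand, 13 CG: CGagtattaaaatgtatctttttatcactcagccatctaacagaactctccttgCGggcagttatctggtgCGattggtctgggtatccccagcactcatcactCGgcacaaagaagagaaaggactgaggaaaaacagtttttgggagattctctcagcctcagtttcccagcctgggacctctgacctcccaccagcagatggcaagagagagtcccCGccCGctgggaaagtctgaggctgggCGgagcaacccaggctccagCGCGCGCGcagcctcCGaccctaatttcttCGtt

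Padi6, Bmp15 and Rfpl4 hold 2 or 3 CG pairs in 300 bases, whereas Ooep, of the same maternal complex as Padi6, holds 15. The windows of Eef1a1 and Rps4x, a translation factor and a ribosomal protein, hold 22 and 13. Over all 32851 RefSeq windows of this length 38.0% hold fewer than 5 CG pairs. Among the 32 oocyte-list genes of the 1000 brightest that matched a window by gene ID, the median was 8.25 CG pairs and 25.0% held fewer than 5. Among all matched genes of the arrays the median was 15 and 23.6% held fewer than 5, so the share in these oocyte genes was near that of all genes. Among the 804 other matched genes of the 1000 brightest, the median was 23.5 and 4.85% held fewer than 5. Windows matched 14739 of the 18820 genes by gene ID. Clustered oocyte families held few, with medians of 2.5 in 8 oocyte NLRP genes, 2 in 7 Fbxw12-type genes and 4 in 6 TCL1 genes. The lists of mRNA storage genes and of meiotic regulators had medians of 28 and 20. The medians describe these windows and were not tested, and a window with few CG pairs says nothing of which factor acts there.

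Cytosolic ribosomal protein genes were frequent near the top, with 15 among the 100 brightest genes. Of 74 cytosolic ribosomal protein genes, 73 were above the floor and 51 were among the 1000 brightest genes, which hold 5.31% of all genes. Their median was 11.11, and Rps4x, encoded on the X, was the brightest at 12.15 ± 0.02. Rpl3l, a form of muscle, was the member at the floor, at 3.45 ± 0.11. Many of these genes have several probe sets and near-identical pseudogenes, 12 probe sets in the case of Rps12, so their signals may include RNA of copies. The 74 mitochondrial ribosomal protein genes were all above the floor, with a lower median of 8.49 and 7 among the 1000 brightest.

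Energy, protein turnover and RNA handling were also bright. All 35 subunits of respiratory complex I were above the floor with a median of 9.65, and 44 of 46 subunits of complexes II to V with a median of 10.29. Cox6c, a subunit of cytochrome oxidase, was their brightest at 11.98 ± 0.02. Of 38 proteasome genes, 36 were above the floor with a median of 10.14. Psma7 read 11.78 at the top and Psma8, the subunit of the meiotic male proteasome, 3.49 at the floor. The 18 hnRNP genes, which package nascent transcripts, had a median of 10.65 and 10 among the 1000 brightest. The 13 subunits of RNA polymerase II were all above the floor with a median of 10.62. Translation initiation factors had 47 of 49 above the floor and 19 among the 1000 brightest.

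Several oocyte gene families also lay near the top of the scale. The oocyte NLRP genes, relatives of inflammasome sensors that serve the egg and early embryo, had 10 of 11 members above the floor, 8 among the 1000 brightest and a median of 10.93. Nlrp4d, at 3.12 ± 0.08, was the member at the floor. The 9 Fbxw12-type F-box genes, substrate adaptors of ubiquitin ligases, were all above the floor with a median of 11.18. They ran from Fbxw17 at 5.98 ± 0.19 to Fbxw18 at 11.44 ± 0.11. The 6 TCL1 genes, co-activators of the kinase Akt, had a median of 10.67 and ran from Tcl1b5 at 8.29 ± 0.16 to Tcl1b1 at 11.56 ± 0.01. Members of these clusters are close in sequence, so how the signal divides among them is uncertain. Oogenesin and Pramel genes were mixed, with 11 of 16 above the floor and a median of 7.05, from Pramel17 at 3.33 to Pramel25 at 11.00.

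Other families lay lower. The 27 core histone genes with a single symbol had a median of 6.20, with the replacement histone H3f3a at 11.43 ± 0.04. A dimmer probe set of H3f3a read 6.38. Of 340 zinc finger genes named Zfp, 287 were above the floor, but 5 were among the 1000 brightest and the median was 6.59. Zfp57, which protects imprinted methylation, headed them at 11.78 ± 0.03. Of 49 amino acid carriers, 23 were above the floor, with Slc7a11, the cystine carrier, brightest at 10.64 ± 0.08. Cathepsins, lysosomal proteases, had 6 of 20 above the floor with Ctsd at 9.38 ± 0.15. The families of specialised cells were at the low end. Median signals were 3.52 for 65 cytochrome P450 genes, 3.98 for 51 keratins, 3.98 for 36 Hox genes and 3.53 for 39 beta-defensins. Above the floor were 14 P450 genes, 20 keratins, 13 Hox genes and 11 beta-defensins, and above 5.67 were 5, 5, 4 and 1. The brightest included Krt84, a hair keratin, at 9.19 ± 0.03, Defb8 at 8.76 ± 0.37, Cyp2c29 at 7.72 ± 0.19 and Hoxa7 at 6.83 ± 0.13. Even the receptor genes that set the floor held Olfr976 at 10.06, 10.01, 10.04 and 10.28 and Olfr214 at 8.50 ± 0.14. Whether base composition of the probes takes part in such low and high readings was not tested.

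**Figure D2:**
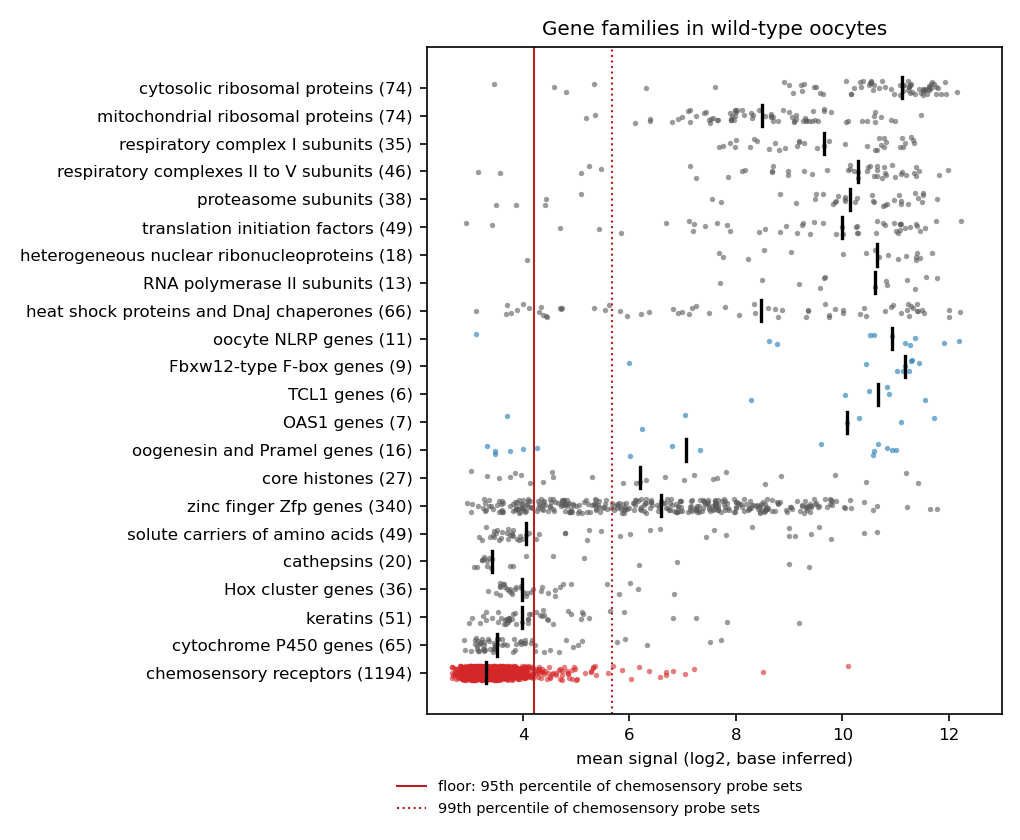
Mean signal (log2) of each gene, 1 point per gene, for 22 families with the number of genes in brackets and a black bar at the median. Oocyte families (blue) reach the range of ribosomal and proteasome genes, and chemosensory receptors (red) have a median of 3.30 over genes, with 13 genes beyond the dotted line at 5.67.

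The lists of oocyte genes were then examined by role. Of 82 measured members, 80 were above the floor, 42 were among the 1000 brightest and 16 were among the 100 brightest. Their median was 10.64. The members at the floor were Obox6, an oocyte-specific homeobox gene, at 3.64 ± 0.07, and Slc38a3, a glutamine carrier, at 3.30 ± 0.09. Slc38a3 was listed under the dialogue with granulosa cells, and its values 3.21, 3.28, 3.42 and 3.29 all lay below the floor. Whether it is a gene of the oocyte side of that dialogue was not tested. The lists were drawn up from knowledge of oocytes and with earlier results of these data known, so their height is not an independent result.

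The coat and the ligands had the highest medians of these lists, 11.93 and 11.87. Zp2, a zona protein that sperm bind and that is cleaved after fertilisation, read 11.74, 11.76, 11.77 and 11.76. With Zp1 and Zp3 it put the whole zona list among the 100 brightest genes. Oosp1 read 11.87 ± 0.04 and Oosp3, another oocyte-secreted protein gene, 11.23 ± 0.02. Bmp6, a bone morphogenetic protein made by oocytes, read 9.71 ± 0.04. Fgf8, which cooperates with Bmp15 to switch on glycolysis in cumulus cells, read 7.03 ± 0.07 and was the lowest ligand. Fertilisation genes were above the floor but outside the 1000 brightest. Cd9, the tetraspanin needed for gamete fusion, read 9.94 ± 0.05, and Astl, the cortical granule protease that cleaves Zp2, 9.95 ± 0.04. Izumo1r, the sperm receptor Juno, read 7.31 ± 0.11, and Cd81, a second tetraspanin, 6.05 ± 0.27.

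Transcription factors covered most of the range. Obox5 read 11.42 ± 0.02, Nobox, a homeobox regulator of Gdf9 and other oocyte genes, 10.85 ± 0.06, and Pou5f1 (Oct4) 10.78 ± 0.02. Lhx8, a LIM homeobox factor of primordial and growing oocytes, read 9.23 ± 0.05. Taf4b, a gonadal TFIID subunit, read 8.82 ± 0.14, and Tbpl2, the oocyte TATA-binding protein, 8.10 ± 0.07. The basic helix-loop-helix factors of the primordial follicle were the dimmest above the floor and spread most. Sohlh1 read 6.04, 6.42, 5.60 and 6.34 and Sohlh2 read 7.19, 7.04, 6.64 and 7.43. Array 3 was lowest for both of these genes and for Figla.

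The subcortical maternal complex, a protein assembly under the egg membrane that the embryo needs at its first divisions, was bright in every measured member. All 7 were among the 500 brightest genes. Nlrp5, Padi6 and Ooep were given above. Zbed3 read 11.40 ± 0.04, Tle6 11.24 ± 0.02, Nlrp2 11.17 ± 0.07 and Khdc3 11.04 ± 0.10. Other maternal effect genes were close to them. Dppa3, which shields the maternal genome from demethylation, read 11.78, 11.77, 11.65 and 11.81. Zar1l read 11.55 ± 0.03, Zar1 11.33 ± 0.13, Npm2, a chaperone of egg histones, 11.51 ± 0.01, and H1f8, the oocyte linker histone, 11.38 ± 0.04. For Zar1 a dimmer probe set read 6.84. Uhrf1, which guides Dnmt1 to DNA, read 11.55 ± 0.05 and Btg4, an adaptor for maternal mRNA decay, 11.28 ± 0.07. Uchl1, an abundant egg deubiquitinase, read 11.54 ± 0.04. Trim28, the co-repressor that Zfp57 recruits, read 8.89 ± 0.14.

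Storage and control of mRNA formed a list whose 13 measured members were all above the floor, with a median of 10.60. Ddx6, an RNA helicase of storage granules, read 10.92 ± 0.10 and Dazl, a germ cell translation activator, 10.69, 10.83, 10.94 and 10.85. Cpeb1, which governs cytoplasmic polyadenylation, read 10.74 ± 0.01 and Lsm14b, a further granule protein, 10.60 ± 0.03. Patl2, an RNA-binding protein of oocytes, read 10.12 ± 0.01. Ybx2 (MSY2), a germ cell Y-box protein that coats stored mRNA, read 9.48 ± 0.08. Zfp36l2, a decay factor for AU-rich mRNAs, read 6.98 ± 0.05 and Bicc1 6.22 ± 0.07. A dimmer probe set of Bicc1 was at 3.48, below the floor.

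Genes that hold meiosis or later drive it formed a list whose 18 measured members were above the floor, with a median of 10.04. Gpr3, the constitutively active receptor that keeps cAMP high in the oocyte, read 7.98, 8.05, 8.13 and 7.98. Pde3a, the phosphodiesterase that lowers cAMP, read 10.20 ± 0.04. The inhibitory kinase Wee2 read 11.42 ± 0.07, the kinase Cdk1 10.30 ± 0.07 and cyclin Ccnb2 10.38 ± 0.13. Mos, the kinase behind metaphase II arrest, read 10.01, 10.02, 10.02 and 10.04. Fbxo43 (Emi2), which holds the anaphase complex at metaphase II, read 11.18 ± 0.07, and Bub1b, a spindle checkpoint kinase, 11.50, 11.66, 11.67 and 11.59. The CDC25 phosphatases were lower, from Cdc25c at 7.37 ± 0.09 to Cdc25a at 8.56 ± 0.03.

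Partners in the dialogue with granulosa cells included Kit, the receptor of granulosa Kit ligand, at 10.84 ± 0.04. Gja4 (connexin 37), the gap junction protein of the oocyte side, read 10.85, 10.71, 10.54 and 10.68. Slc6a9, the glycine transporter that oocytes use for volume control, read 10.37, 10.52, 10.31 and 10.43.

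Markers of other lineages were mostly at or near the floor. Of 115 measured members of these lists, 47 were above 4.21, 15 were above 5.67, and 1 was among the 1000 brightest. Their median was 4.01. By the same measures 62.8% of all genes were above the floor and 5.31% were among the 1000 brightest.

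**Figure D3:**
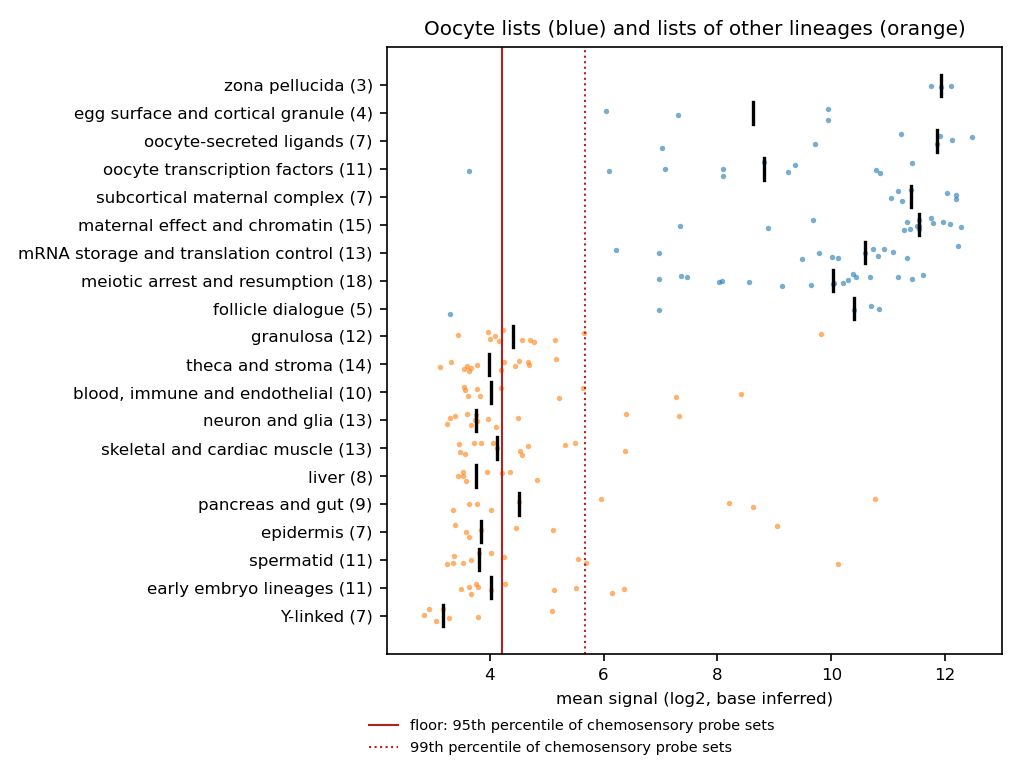
Mean signal (log2), 1 point per gene, for 9 lists of oocyte genes (blue) and 11 lists of other lineages (orange), with the number measured in brackets and a black bar at the median. The oocyte medians lie between 8.63 and 11.93 and the other medians lie close to the floor at 4.21, with bright exceptions such as Cpa1 and Nr5a2.

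Granulosa cells touch the oocyte and could come with it, so their markers were examined one by one. Amh, the hormone of granulosa cells in growing follicles, read 3.49, 3.31, 3.55 and 3.44, below the floor on every array. Fshr, the receptor of follicle-stimulating hormone, read 4.10 ± 0.07, Amhr2 4.01 ± 0.16, Inhbb, an activin subunit, 4.15 ± 0.27 and Grem1 3.98 ± 0.09, all at the floor. Foxl2, the transcription factor that keeps granulosa identity, read 4.50, 4.79, 4.79 and 4.76, and Kitl, the Kit ligand, read 4.78, 4.69, 4.69 and 4.94. Inhba read 5.14 ± 0.16, Hsd17b1, a steroid enzyme of granulosa cells, 4.56 ± 0.18 and Inha 4.24 ± 0.26. Gja1 (connexin 43), the junction protein of granulosa cells, read 5.81, 5.48, 5.72 and 5.58. The means of Foxl2, Kitl, Inhba, Hsd17b1, Inha and Gja1 lie in the band between 4.21 and 5.67 that bright receptor probe sets share, while Gja1 passed 5.67 on arrays 1 and 3. Nr5a2, a nuclear receptor of granulosa cells, was the exception at 9.84, 9.73, 9.84 and 9.85. Of 12 measured granulosa markers, 7 (58.3%) were above 4.21, near the 62.8% of all genes, and 1 was above 5.67. The list mean per array ran from 4.76 to 4.93. Cyp19a1 and Fst, which have no single-symbol probe set, were not analysed here. The part of granulosa RNA in any signal was not tested.

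In the theca and stroma list 6 of 14 measured members were above the floor and 0 above 5.67. Cyp17a1, the androgen enzyme of theca cells, read 3.32 ± 0.15. Of the matrix genes, Lum and Dcn were at the floor with 3.13 ± 0.11 and 3.66 ± 0.03, while the collagen genes Col1a1, Col1a2 and Col3a1 read 4.45 ± 0.05, 4.68 ± 0.05 and 4.25 ± 0.05. Nr2f2, a nuclear receptor, read 5.17 ± 0.10, the Hedgehog factor Gli1 4.68 ± 0.08 and the steroid enzyme Hsd3b1 4.51 ± 0.21. The list mean per array ran from 3.96 to 4.08. In the list of blood, immune and endothelial genes, Ptprc (CD45) read 3.78 ± 0.07, Lyz2 of macrophages 3.54 ± 0.05 and the endothelial Cdh5 3.56 ± 0.10. The endothelial adhesion protein Pecam1 stood apart at 8.35, 8.42, 8.58 and 8.32, and the angiopoietin receptor Tek at 7.25, 7.28, 7.31 and 7.28. Cd68, a lysosomal protein of macrophages, read 5.44, 6.03, 5.40 and 5.65, and Alas2, the heme enzyme of red cells, 5.22 ± 0.10. Kdr, a receptor of endothelial growth factor, was at the floor with 3.83 ± 0.07. In all, 4 of 10 measured members were above the floor and 2 above 5.67. Array means of this list ran from 4.87 to 4.94.

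Of the other lineages, the pancreas and gut list had 5 of 9 measured members above the floor and 4 above 5.67. Cpa1, a carboxypeptidase of the exocrine pancreas, read 10.75, 10.79, 10.81 and 10.73 and ranked 684. The gut brush border gene Vil1 read 8.46, 8.83, 8.78 and 8.43, and Pdx1, the pancreatic homeobox factor, 8.13, 8.29, 8.27 and 8.10. The pancreatic hormone gene Gcg was at 3.77 ± 0.09 and Ins2 at 4.52 ± 0.10, and Cela1, an elastase, was at 5.95 ± 0.28. In the epidermis list, Trp63, whose product guards the quality of oocyte DNA, read 9.01, 9.17, 8.95 and 9.07, while the keratins Krt5, Krt10 and Krt14 read 3.84 ± 0.03, 5.10 ± 0.09 and 4.46 ± 0.14. The list of neurons and glia had 3 of 13 members above the floor. These were Syt1, a vesicle calcium sensor, at 7.33 ± 0.13, Map2, a dendritic microtubule protein, at 6.39 ± 0.15 and Sox10, a factor of glia, at 4.50 ± 0.15. Snap25, Rbfox3 and Gfap were at 3.98, 3.75 and 3.74.

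The muscle list had 6 of 13 members above the floor and 1 above 5.67. Tnni3, cardiac troponin I, read 6.37 ± 0.08, Mb, myoglobin, 5.50 ± 0.23 and the troponin Tnnt2 5.32 ± 0.07. Ckm, muscle creatine kinase, read 4.66 ± 0.11 and the myosins Myh2 and Myh7 4.57 ± 0.08 and 4.53 ± 0.21, and Myod1 was at the floor with 4.13 ± 0.10. Of 8 liver genes 3 were above the floor, namely Apoa1 at 4.84 ± 0.14, Afp at 4.35 ± 0.18 and Hnf4a at 4.22 ± 0.10, and Alb was at 3.54 ± 0.14.

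Of 11 measured spermatid genes 4 were above the floor and 2 above 5.67. Prm1, a protamine of sperm chromatin, read 4.25 ± 0.09, Tnp1 3.52 ± 0.18 and Akap4 3.24 ± 0.03. Odf1, of the sperm tail, read 5.69 ± 0.09 and Gapdhs, the sperm form of a glycolytic enzyme, 5.55 ± 0.21. A dimmer probe set of Gapdhs read 3.93, below the floor. Ldhc, the germ cell lactate dehydrogenase, read 10.07, 10.23, 10.10 and 10.07. Of 11 genes of early embryonic lineages 5 were above the floor and 2 above 5.67. At the floor were, among others, Cdx2 at 3.49 ± 0.21, Nanog at 3.67 ± 0.08 and Eomes at 3.79 ± 0.10. Pax6, of the eye and brain, read 6.13, 6.80, 6.17 and 6.33, and Gata4, of the endoderm and gonad, 6.15 ± 0.16. Sox2, of pluripotent cells, read 5.25, 5.60, 5.95 and 5.25, Gata6 5.12 ± 0.15 and Foxa2 4.27 ± 0.08. Y-linked genes, absent from a female genome, gave a second measure of the low end. Of 7 measured, Zfy1 read 2.84 ± 0.11, Eif2s3y 2.93 ± 0.06, Uty 3.06 ± 0.07, Usp9y 3.18 ± 0.05, Kdm5d 3.28 ± 0.07 and Zfy2 3.79 ± 0.13, and these 6 were at the floor. Sry, at 5.10 ± 0.14, was above it, so a reading near 5 from 1 probe set is not evidence of RNA of that gene.

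Members of paralogue sets were placed above the floor or at it. Of 58 sets, 56 had at least 2 measured members. In 30 sets members lay on both sides of the floor, and in 26 all measured members were above it. In 8 sets 1 member was above. Over all sets 200 of 264 measured genes (75.8%) were above the floor, against 62.8% of all genes. Whether paralogue sets divide more often than other groups of genes was not tested. The sets below were set against the floor and not against each other.

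**Figure D4:**
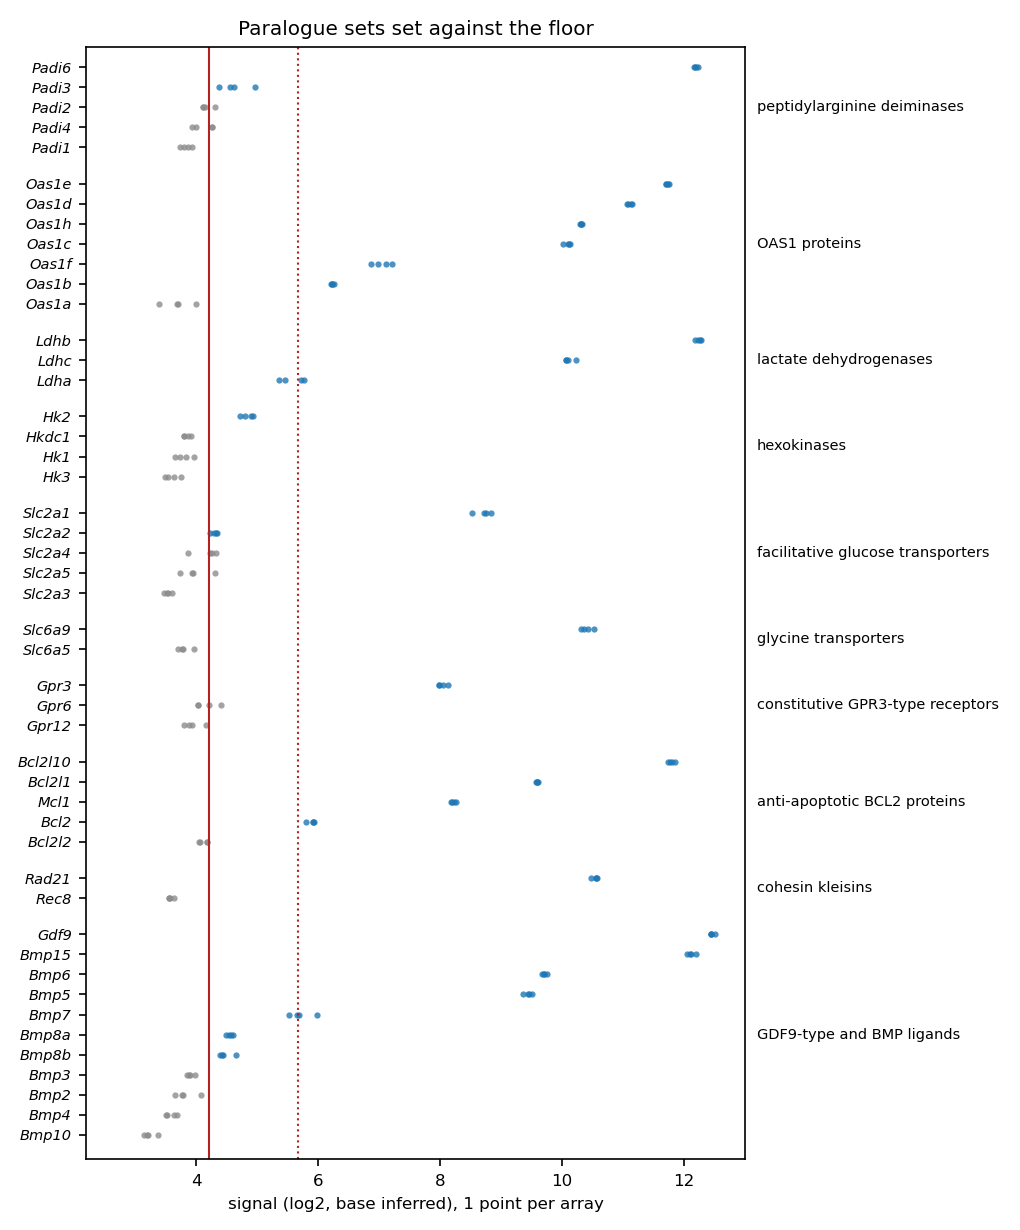
Signal (log2) on each of 4 wild-type arrays, 1 point per array, for the measured members of 10 paralogue sets, with the floor (4.21, solid line) and the 99th percentile of receptor probe sets (5.67, dotted line). Members whose mean was above the floor are blue, and Padi6, Slc2a1, Slc6a9, Gpr3, Bcl2l10 and Rad21 each head a set that also holds members below the floor, and all 3 lactate dehydrogenases are above it.

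Several enzyme families have a member known from oocytes. Padi6 was at 12.20, while the peptidylarginine deiminases of other tissues were low. Padi1 read 3.84 ± 0.08, Padi2 4.17 ± 0.10, Padi4 4.11 ± 0.17 and Padi3 4.63 ± 0.25. In the OAS1 family, relatives of an antiviral oligoadenylate synthetase, the interferon-induced Oas1a was at the floor with 3.70 ± 0.25. Oas1e read 11.71, 11.74, 11.70 and 11.75, Oas1d, which is known from oocytes, 11.11 ± 0.04, Oas1h 10.31 ± 0.02 and Oas1c 10.09 ± 0.06. Oas1f read 7.04 ± 0.15 and Oas1b 6.23 ± 0.02, so 6 of 7 measured members were above the floor. Of the NLRP genes known from immune cells and epithelia, Nlrp1a at 3.30 ± 0.13, Nlrp1b at 3.39 ± 0.04, Nlrp3 at 3.64 ± 0.04 and Nlrp10 at 3.30 ± 0.14 were at the floor. Nlrp6 was just above it at 4.33 ± 0.16. Of their oocyte relatives, Nlrp4a read 11.37 ± 0.05, Nlrp9b 11.27 ± 0.09 and Nlrp4g 10.93 ± 0.04.

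Several steps of glycolysis and its transport had members at the floor. Slc2a1, the basal glucose transporter, read 8.83, 8.53, 8.73 and 8.76, while Slc2a3 read 3.47, 3.53, 3.53 and 3.61. Among hexokinases, which trap glucose, Hk1 read 3.97, 3.73, 3.65 and 3.83, Hk3 3.60 ± 0.12 and Hkdc1 3.85 ± 0.06. Hk2 read 4.94, 4.81, 4.90 and 4.72, so no measured hexokinase exceeded 5.67. Several downstream enzymes exceeded it. Pfkm and Pfkp, phosphofructokinases, read 6.66 ± 0.12 and 6.73 ± 0.24, Pgk1 9.26 ± 0.07 and Pkm 10.08 ± 0.09. Pgk2, the retrogene of male germ cells, was at 3.36 ± 0.13. Lactate dehydrogenases, which interconvert lactate and pyruvate, ran from Ldha at 5.46, 5.72, 5.36 and 5.77 to Ldhb at 12.19, 12.22, 12.26 and 12.29. The enolases Eno2 and Eno3 were at the floor, at 3.69 ± 0.13 and 3.50 ± 0.19. Eno1 and Pdha1 have no single-symbol probe set and were not analysed here.

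Receptors, junctions and survival genes also divided. Gpr3 was above the floor and its relatives Gpr6 and Gpr12 were at it, at 4.17 ± 0.18 and 3.94 ± 0.15. Of 16 measured connexins 9 were above the floor and 3 above 5.67, namely Gja4, Gjb2 at 7.83 ± 0.16 and Gjc1 at 6.97 ± 0.10. A dimmer probe set of Gjb2 read 5.05. Of the glycine transporters Slc6a9 was bright and the neuronal Slc6a5 was at 3.81 ± 0.12. Bcl2l10 (Diva), an egg BCL2 relative, read 11.78, 11.81, 11.85 and 11.74. Bcl2l1 read 9.59 ± 0.01, Mcl1 8.22 ± 0.03 and Bcl2 5.89 ± 0.06, and Bcl2l2 was at the floor with 4.11 ± 0.08. A dimmer probe set of Bcl2 read 4.14, below the floor. Among BMP ligands, Bmp5 read 9.44 ± 0.06, and Bmp2, Bmp3, Bmp4 and Bmp10 were at the floor from 3.23 to 3.90.

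In chromosome biology the germline and somatic forms were often read together. Smc1a and its meiotic relative Smc1b, ring subunits of cohesin, read 10.10 ± 0.10 and 10.15 ± 0.10. The kleisin Rad21, which closes the ring, read 10.54 ± 0.05. Its meiotic counterpart Rec8 read 3.56, 3.56, 3.57 and 3.64, at the floor on all 4 arrays. Rec8 has 1 single-symbol probe set, and whether that probe set reads the oocyte transcript was not tested. Of the STAG subunits, Stag3, the meiotic form, read 6.51 ± 0.12. All 4 measured DNA methyltransferase genes were above the floor. Dnmt3a, which methylates the genome of growing oocytes, read 9.67 ± 0.07, its cofactor Dnmt3l 7.25, 7.43, 7.43 and 7.26, and Dnmt3b 6.97 ± 0.06. In the linker histones H1f8 stood beside the somatic H1f2 at 9.87 ± 0.35 and H1f1 at 8.56 ± 0.15, and the testis form H1f6 was at 3.67 ± 0.02. Piwil2, a germline PIWI protein, read 7.13 ± 0.54, and Piwil4 was at the floor with 3.86 ± 0.12.

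Machinery for translation showed the same mixture. All 4 cap-binding genes were above the floor, with Eif4e at 10.97 ± 0.10, Eif4e3 at 11.46 ± 0.13 and Eif4e2 at 8.54 ± 0.06 beside Eif4e1b. Of the poly(A)-binding proteins, Pabpc1l, the egg form, read 9.79 ± 0.03 and the somatic Pabpc1 9.81 ± 0.07, while Pabpc2 was at 3.66 ± 0.10. Igf2bp3 read 10.01 ± 0.05 and Igf2bp1, another mRNA-binding protein of that family, 4.07 ± 0.19. Dazl was bright and its relative Boll was at 3.80, 3.81, 3.94 and 3.84. All 4 deadenylases of the CCR4-NOT complex were above the floor, with Cnot6l, a deadenylase of the egg, at 11.37 ± 0.05. Among importins that carry proteins to the nucleus, Kpna2 read 11.85 ± 0.02 and the egg form Kpna7 11.52 ± 0.04. Beta tubulins ran from Tubb4a at 3.41 ± 0.12 and Tubb1, of platelets, at 4.06 ± 0.20 to Tubb4b at 11.41 ± 0.10.

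Of 719 X-linked genes 369 were above the floor (51.3%), against 63.4% of autosomal genes and 54.1% to 73.8% over the single autosomes. The X-linked genes above the floor had a median of 7.37, and the autosomal genes a median of 7.37, with single autosomes between 6.69 and 7.91. Bmp15 and Rps4x were among the brightest X-linked genes.

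The 4 arrays were close to each other. Pairs of arrays correlated at 0.997 to 0.998 over probe sets (Pearson's r), and the median SD of a gene above the floor was 0.0982. The 1000 brightest genes had a smaller median SD of 0.0541, and the genes at the floor 0.1003. Of the genes above the floor, 64 (0.541%) had an SD over 0.5. Arrays 1 and 4 differed by more than 1 in 2 genes, whereas each of the other 5 pairs differed by that much in 31 to 44 genes. Each of the 64 genes was split at the largest gap between its 4 values, so graded genes were split too. Tceanc2, at 8.13, 6.58, 5.56 and 8.27, was such a gene. By this split array 2 stood apart from the other arrays in 23 of the 64 genes and array 3 in 15. In 21 genes arrays 1 and 4 were split from arrays 2 and 3.

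**Figure D5:**
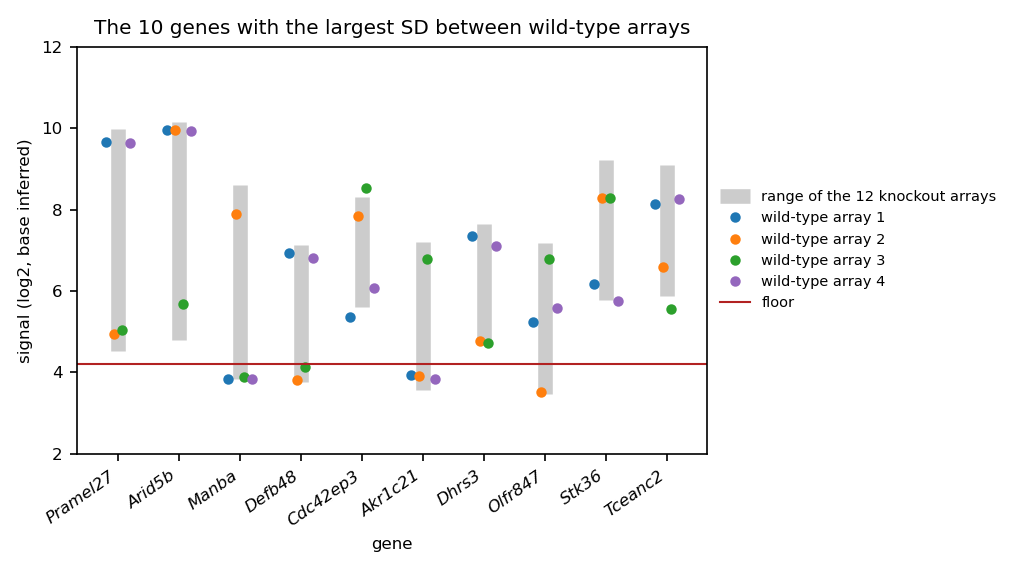
Signal (log2) on each of 4 wild-type arrays (coloured points) for the 10 genes with the largest SD and established symbols, with the range over the 12 knockout arrays as a grey bar and the floor as a line. Pramel27 reads near 9.65 on arrays 1 and 4 and near 5 on arrays 2 and 3, and the double knockout arrays lie at the low end of its grey bar.

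Pramel27, a member of the oocyte-rich Pramel family, read 9.66, 4.93, 5.03 and 9.65, the largest SD of all genes at 2.70. Arid5b, a DNA-binding cofactor of a histone demethylase, read 9.96, 9.96, 5.67 and 9.93. Manba, a lysosomal beta-mannosidase, read 3.84, 7.90, 3.88 and 3.83 and was below the floor on 3 arrays. Each gap was many times the spread among the arrays that read alike. Dhrs3, a retinal reductase, read 7.34, 4.78, 4.71 and 7.10 and divided the arrays as Pramel27 did. Stk36, a kinase of the Hedgehog and cilia pathways, divided them the same way with the opposite sign, at 6.18, 8.29, 8.28 and 5.76. Of the 21 genes that divided arrays 1 and 4 from 2 and 3, 6 lie on chromosome 4, Pramel27, Dhrs3 and Tceanc2 among them. Of the 23 genes in which array 2 stood apart, 6 lie on chromosome 13 and 5 on chromosome 9. Chromosome 4 holds 768 of the 11828 genes above the floor, chromosome 13 holds 455 and chromosome 9 holds 673. On the knockout arrays Pramel27 read 9.77, 9.36, 5.84 and 9.46 in the Hdac1 knockout, 9.55, 9.47, 9.46 and 9.98 in the Hdac2 knockout, and 5.13, 5.05, 4.53 and 4.94 in the double knockout. The 4 double knockout arrays were thus low, like wild-type arrays 2 and 3, and the Hdac1 knockout held both readings. The sources used here do not say which mice gave which pool, and the origin of these differences was not tested.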

How the data were processed

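RNA was measured on 16 arrays, of which the 4 labelled wild type are described here. The authors deposited 1 value per probe set and array on a log scale, taken as log2 because no source names the base. Per the submitters' processing notes MAS5 was used, and the series' design text adds GeneSpring v7, SAM and EASE. Their order and settings are not stated in these sources. Medians of the arrays were 4.46 to 4.48 and the largest quartile distance was 0.0138, under a limit of 0.2, so no rescaling was applied. Gene symbols came from the platform's annotation, and 18790 of 18820 genes matched RefSeq by gene ID, with 0 symbols changed. The 1881 probe sets with several symbols and 12457 with none entered no rank. Precision is limited by the 4 arrays.

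The floor is the 95th percentile of 1220 chemosensory probe sets. Medians, SDs, ranks and counts were computed with Python 3.11.15, numpy 2.4.6 and pandas 2.3.3, and the ranking and floor steps were tested on simulated data. Knockout readings of Hdac1, Hdac2 and the variable genes are given as values with no test between groups, and Dixon's limit marked genes with a deviating array. The pools are replicates by label only. Named genes were drawn from the given markers, Hdac1 and Hdac2, the 40 brightest with established symbols, members of the oocyte and paralogue lists, the brightest and dimmest of families described, all lineage members above the floor, and the 10 most variable genes. Lineage members at the floor and the receptor and promoter examples were named after their values were seen. Members, families and lists were chosen with earlier results of these data known. Alternatives were the 99th percentile as the floor, a floor on each array, the mean over probe sets, the probe set brightest over 16 arrays, quantile normalization and leaving out each array.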

Additional observations from a re-analysis of the deposited data

Results flagged for a closer look

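Among 267 genes named in the text, 18 had 1 array whose gap to the nearest other array took up most of the range of the 4 arrays, by Dixon's 95% limit. Chance alone marks about 1 gene in 20. Of the 267 genes, 6 were named for their large SD between these arrays, and 2 of those 6 were marked, which their choice favours. Of the 261 others 16 (6.13%) were marked. The gap was wide in the 2 genes chosen by SD. Arid5b read 5.67 on array 3 against 9.93 to 9.96 on the others, and Manba read 7.90 on array 2 against 3.83 to 3.88.

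In the other 16 genes the gap was small, and what marked them was the closeness of the remaining 3 arrays. Array 3 was highest for Gdf9 (12.51), Elobl (12.24), Kpna2 (11.87) and Nlrp1a (3.49), and lowest for Bcl2 (5.81). Array 1 was highest for Psma7 (11.81) and lowest for Rad21 (10.47) and Foxl2 (4.50). Array 2 was lowest for Nr5a2 (9.73), Nlrp4a (11.29) and Pfkm (6.48). Array 4 was lowest for Eif4e1b (12.18), Pou5f1 (10.76) and Hoxa7 (6.63) and highest for Padi2 (4.31) and Ptprc (3.89).

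Probe sets left out of the ranking also carried signal. Of 12457 probe sets with no symbol, 4701 (37.7%) were above the floor, and the brightest read 12.74. Of 1881 probe sets with several symbols, 1171 (62.3%) were above it, and the brightest read 12.10.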

How the results depend on the processing

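The placement of the floor mattered most. With the 99th percentile of the receptor probe sets as the floor, members of the lineage lists above it numbered 15 in place of 47, and genes above it with an SD over 0.5 numbered 38 in place of 64, since fewer genes pass a higher limit. All genes above the floor numbered 8554 in place of 11828, and 38 of the 267 named genes changed sides, Foxl2, Kitl, Inhba, Gja1, Sox2, Sry, Hk2 and Ldha among them. Oocyte-list members above the floor numbered 80 under each alternative tried. Leaving out each array in turn gave 11674 to 11773 genes above the floor, 44 to 47 lineage members, 198 to 199 paralogue members (200 with all arrays) and 53 to 86 genes with an SD over 0.5, and changed the side of Rtkn, Inha, Prm1, Inhbb, Hnf4a, Foxa2 or Manba. Of the 40 brightest genes, 32 were shared when a gene's probe sets were averaged, and 38 to 40 when an array was left out. Averaging moved 28 of the 267 levels by more than the SD between arrays, and quantile normalization moved 12. The alternatives for the SD count were added after the data were seen. No paired analysis was possible because no result comes from a test. Near the floor a low level cannot be told from background with 1 probe set, and whether the brightest probe sets are near saturation was not tested.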
